A study of Mus musculus with 18 samples.

Results

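Neocortex of mouse pups that carried a human FOXP2 cDNA (huFOXP2) was compared with neocortex that carried GFP alone, and the differences found in every dissected layer are described here. The comparison took all huFOXP2 libraries (6, from 2 mice) and all GFP libraries (9, from 3 mice), which are 15 of the 18 libraries in the series. The remaining libraries, from a mouse that received mouse Foxp2, were left out of every fit. All animals were of the outbred CD-1 stock, whose individuals differ in sequence. Embryos were electroporated in utero at E14.5 (embryonic day), a procedure that drives plasmid DNA into the cells lining the brain's fluid space. The huFOXP2 embryos received human FOXP2 cDNA with Gfp cDNA, and the GFP embryos received Gfp cDNA with an empty plasmid. The brains were taken at postnatal day 7 and sectioned at 300 µm, and 3 depths of the neocortex were dissected: layers 2 and 3 (L2-3), layer 4 (L4), and layers 5 and 6 (L5-6). Pieces of a layer were pooled within a mouse, so each mouse gave 1 library per layer. The labels name GFP-positive cells for L4 and GFP-negative cells for L2-3 and L5-6, and they name no promoter for the plasmids. The mouse was taken as the replicate.

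FOXP2 is a forkhead-box transcription factor that binds DNA as a dimer with itself or with FOXP1 or FOXP4, and it is known mainly as a repressor. In the mouse neocortex it is a marker of deep-layer projection neurons, above all of layer 6. Mutations in the human gene cause a speech and language disorder. Ddah1 and Cap2, the genes singled out for this comparison, act outside the nucleus. Ddah1 encodes an enzyme that breaks down asymmetric dimethylarginine, an inhibitor of nitric oxide synthases, and Cap2 encodes a cyclase-associated protein that turns over actin filaments.

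Library totals lay between 10111149 and 23404528 counts. Layer markers served as a check of the dissection. Cux2, of the upper layers, reached 155 and 70.3 CPM (read counts relative to the library's scaled total) in the L5-6 libraries of huFOXP2 mice 1 and 2, against 53.5, 52.6 and 108 CPM in GFP mice 1, 2 and 3. Rorb, a marker of layer 4, had 46.8 and 41.6 CPM in the L2-3 libraries of huFOXP2 mice, against 207, 87.7 and 124 CPM in GFP mice. Markers of one layer thus varied within another dissected layer, between mice for Cux2 and also between the groups for Rorb. In L2-3 Cux2 was apart between the groups too, at 223 and 228 CPM in huFOXP2 mice, against 397, 301 and 315 CPM in GFP mice. In L2-3 the summed CPM of 8 listed layer 4 markers was 152 to 164 in huFOXP2 and 248 to 384 in GFP libraries. That of 11 layer 2-3 markers was 1966 to 2029 in huFOXP2 and 2481 to 2796 in GFP libraries. For 14 layer 6 and subplate markers it was 324 to 326 in huFOXP2 and 370 to 482 in GFP libraries of L2-3. In L4 their sums were 431 to 447 in huFOXP2 and 519 to 661 in GFP libraries. The sums of 12 layer 5 markers in L4 were 390 to 406 in huFOXP2 and 411 to 640 in GFP libraries. Both of these lists overlapped in L5-6, and the layer 5 list also in L2-3. Dissection and treatment cannot be told apart in these values. GFP mouse 1 stood apart: in the 6 pairs of replicate libraries that held it, chi-square over degrees of freedom was 23.5 to 54.3, and in the other 6 pairs it was 8.89 to 12.4. huFOXP2 mouse 1 also stood apart, since Crx, a transcription factor of photoreceptors, had 1.61, 2.44 and 2.51 CPM in its L2-3, L4 and L5-6 libraries and at most 0.0563 CPM in any other library.

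When the counts of the 3 layers of each mouse were summed, 3 of 18064 tested genes differed between huFOXP2 and GFP mice, a share of 0.0166% (edgeR quasi-likelihood test, Benjamini-Hochberg adjusted p under 0.05). Of these, 2 rose in huFOXP2 mice (0.0111%) and 1 fell (0.00554%). Log2 fold changes are huFOXP2 over GFP throughout, so positive values are higher in huFOXP2. All 3 genes are processed pseudogenes, which are copies of a messenger RNA inserted back into the genome without introns. No protein-coding gene passed in this test, while a limma voom fit described below called 9 genes and DESeq2 called 90. The same 3 genes were called when each layer was fitted alone: 3 of 15588 genes in L2-3 (0.0192%), 3 of 14999 in L4 (0.02%) and 3 of 15773 in L5-6 (0.019%). In the summed fit 808 genes, 494 of them higher and 314 lower in huFOXP2 mice, had an unadjusted p under 0.05.

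Each of the 3 pseudogenes is nearly identical to the coding sequence of an abundant messenger RNA. Gm6166 (ENSMUSG00000074280.6, mm10 chr9:57483963-57484371, plus strand) copies Fabp5, which encodes a fatty acid-binding protein, with 98.3% identity over 409 aligned bases. Gm11942 (ENSMUSG00000094344.1, chr4:32964888-32965232, plus strand) copies Rplp1, which encodes an acidic protein of the large ribosomal subunit, with 97.4% identity over 345 bases. Rpsa-ps10 (ENSMUSG00000047676.6, chr3:150072658-150073542, minus strand) copies Rpsa, which encodes a protein of the small ribosomal subunit and laminin receptor, with 99.3% identity over 885 bases. The bases that differ number 7, 9 and 6 in these alignments, counting 2 gap bases in the first. Each whole aligned stretch of the parent lies in its coding sequence. For each pair, 120 bases of the pseudogene are shown with the matching stretch of the parent, since reads from within the aligned part can be told apart only by differing bases such as these. The sequences are GENCODE M21 transcripts on mm10, 5′ to 3′ in the sense of the gene, and capitals mark bases that are different or missing in the other member of the pair.
Gm6166, chr9:57484106-57484225: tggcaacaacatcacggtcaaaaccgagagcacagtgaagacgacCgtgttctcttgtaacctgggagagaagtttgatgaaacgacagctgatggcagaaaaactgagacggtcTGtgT
Fabp5: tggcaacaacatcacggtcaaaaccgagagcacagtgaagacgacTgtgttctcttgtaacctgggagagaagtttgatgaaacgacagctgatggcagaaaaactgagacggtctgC
Gm11942, chr4:32965026-32965145: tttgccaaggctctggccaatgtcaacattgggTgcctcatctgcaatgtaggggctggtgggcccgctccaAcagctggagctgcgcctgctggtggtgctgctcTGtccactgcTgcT
Rplp1: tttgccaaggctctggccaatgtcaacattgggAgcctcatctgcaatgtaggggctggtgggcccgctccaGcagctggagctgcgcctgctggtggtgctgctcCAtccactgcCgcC
Rpsa-ps10, chr3:150073324-150073443: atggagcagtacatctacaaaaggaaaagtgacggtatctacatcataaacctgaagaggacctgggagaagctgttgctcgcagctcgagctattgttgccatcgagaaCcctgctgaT
Rpsa: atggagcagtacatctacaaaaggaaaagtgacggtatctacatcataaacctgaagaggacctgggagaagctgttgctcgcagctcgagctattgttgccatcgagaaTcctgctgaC
The stretches hold 4 differing bases for Gm6166, 6 for Gm11942 and 2 for Rpsa-ps10.

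Gm6166 had 56.8 and 50.5 CPM in the L2-3 libraries of huFOXP2 mice, against 0.286, 0.451 and 0.956 CPM in those of GFP mice. In L4 it had 57.6 and 51.8 CPM in huFOXP2 mice, against 0.488, 0.412 and 0.136 CPM in GFP mice. In L5-6 it had 50.02 and 44.9 CPM in huFOXP2 mice, against 0.438, 0.187 and 0.051 CPM in GFP mice. Every huFOXP2 library was above every GFP library, and the huFOXP2 level hardly varied with layer or mouse. Over the 3 layers, 2939 and 2146 reads were counted in the huFOXP2 mice and 16, 17 and 19 in the GFP mice. Gm6166 rose by 7.20 ± 0.16 on the log2 scale (fold change ± SE, edgeR adjusted p = 1.33e-05).

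Gm11942 had 52.6 and 22.3 CPM in L2-3 of huFOXP2 mice, against 0.343, 0.113 and 0.637 CPM in GFP mice. Its L4 level was 42.5 and 18.8 CPM in huFOXP2 mice, against 0.0976, 0.165 and 0.272 CPM in GFP mice. In L5-6 it had 35.5 and 16.0 CPM in huFOXP2 mice, against 0.511, 0.281 and 0.204 CPM in GFP mice. The groups did not overlap in any layer, and huFOXP2 mouse 1 was above huFOXP2 mouse 2 in each. Summed over layers, 2408 and 819 reads were counted in huFOXP2 mice 1 and 2, and 14, 10 and 20 in the GFP mice. Gm11942 rose by 6.75 ± 0.46 (log2, edgeR adjusted p = 0.0141). The call was lost without GFP mouse 1 (adjusted p = 0.127), without GFP mouse 2 (0.0706) or with no filter on low counts (0.0677), while the difference stayed between 5.96 and 7.26 over 17 other settings (adjusted p from 1.62e-53 to 0.127).

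Rpsa-ps10 went the other way, with 4.46 and 4.79 CPM in L2-3 of huFOXP2 mice, against 309, 239 and 136 CPM in GFP mice. Its L4 libraries had 4.46 and 3.53 CPM in huFOXP2 mice, against 292, 189.6 and 119 CPM in GFP mice. In L5-6 it had 3.33 and 2.80 CPM in huFOXP2 mice, against 286, 227 and 129 CPM in GFP mice. All huFOXP2 libraries were below all GFP libraries, and among the GFP mice the order was the same in each layer, with mouse 1 highest and mouse 3 lowest. The reads summed over layers were 221 and 157 in huFOXP2 mice, and 12321, 11394 and 7293 in GFP mice. Rpsa-ps10 fell by 5.81 ± 0.42 on the log2 scale (edgeR adjusted p = 0.0141). Leaving out GFP mouse 2 (adjusted p = 0.0706), huFOXP2 mouse 1 (0.22) or huFOXP2 mouse 2 (0.0673) ended the call, as did no filter on low counts (0.237); the difference ranged from -6.08 to -5.50 over 17 settings, with adjusted p from 6.45e-74 to 0.237.

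**Figure D1:**
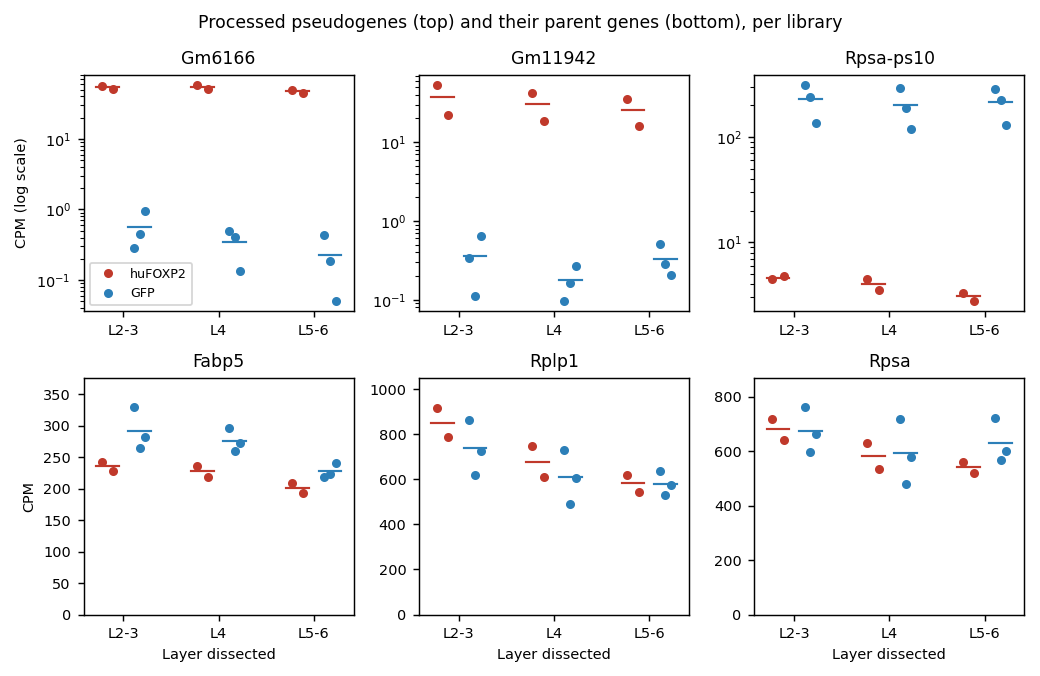
CPM of the 3 processed pseudogenes (top row, log axis) and of their parent genes (bottom row, linear axis from 0) in every library, by dissected layer; red points are huFOXP2 libraries, blue points are GFP libraries, and each line is a group mean. In all 3 layers Gm6166 and Gm11942 lie above 16 CPM in huFOXP2 libraries and below 1 CPM in GFP libraries, Rpsa-ps10 lies below 5 CPM in huFOXP2 libraries and above 119 CPM in GFP libraries, and the parents differ far less.

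The parent genes did not pass. Fabp5 had 242 and 229 CPM in L2-3, 236 and 219 CPM in L4, and 209 and 193 CPM in L5-6 of huFOXP2 mice, against 329, 264 and 282 CPM, 296, 260.1 and 273 CPM, and 219, 223 and 240.4 CPM in the same layers of GFP mice. Every huFOXP2 library was thus below every GFP library of its layer, by a summed difference of -0.27 ± 0.12 on the log2 scale (edgeR adjusted p = 0.9999). Added together per library, Fabp5 and Gm6166 came to 238 to 299 CPM in huFOXP2 mice and 220 to 329 CPM in GFP mice, so the sums overlapped. Rplp1 differed by 0.13 ± 0.17 and Rpsa by -0.08 ± 0.16 (adjusted p = 0.9999 each). Rplp1 with Gm11942 came to 561 to 969 CPM in huFOXP2 mice and 491 to 865 CPM in GFP mice. Rpsa with Rpsa-ps10 came to 522 to 723 CPM in huFOXP2 mice and 668 to 1072 CPM in GFP mice. The Rplp1 sums overlapped in every layer, whereas the Rpsa sums were lower in huFOXP2 than in every GFP library within each layer.

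Other copies of the same messenger RNAs were looked for among annotated transcripts with at least 90% identity over at least 80% of the pseudogene's length. The table held 6 such genes for the Fabp5 copy, 8 for the Rplp1 copy and 16 for the Rpsa copy, each count including the pseudogene and its parent. Beyond those pairs, 0, 1 and 4 of them had enough reads to be tested, and 0 passed (edgeR, lowest adjusted p = 0.9999). Their differences were -0.61 for the 1 copy of Rplp1 and -1.04 to 2.39 for the 4 copies of Rpsa. Processed pseudogenes as a class took 0.115% to 0.142% of the counts in huFOXP2 libraries and 0.118% to 0.158% in GFP libraries. How the authors' counting treated reads that match several places is not given in the sources used here, so the split of reads between each pseudogene and its parent is uncertain. Differences between individual animals of an outbred stock and the treatment cannot be told apart with 2 and 3 mice.

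Foxp2 (ENSMUSG00000029563.16, chr6:14901349-15441977) checks the labels, because reads of a FOXP2 cDNA may align to it. In L2-3 it had 20.2 and 52.2 CPM in huFOXP2 mice, against 1.77, 6.53 and 5.22 CPM in GFP mice. In L4 it had 33.3 and 64.9 CPM in huFOXP2 mice, against 5.95, 8.74 and 5.39 CPM in GFP mice. In L5-6, where the endogenous gene is active in deep-layer neurons, it had 39.6 and 77.7 CPM in huFOXP2 mice, against 61.4, 68.6 and 52.4 CPM in GFP mice. The groups were apart in L2-3 and L4 and overlapped in L5-6, and huFOXP2 mouse 2 was above huFOXP2 mouse 1 in every layer. Foxp2 passed in none of these fits: the differences were 2.99 ± 0.63 in L2-3 (edgeR adjusted p = 0.177), 2.90 ± 0.31 in L4 (0.0513), -0.05 ± 0.27 in L5-6 (0.959) and 0.90 ± 0.34 over the summed layers (0.9999). The labels name GFP-negative cells for L2-3, yet its huFOXP2 libraries were also above its GFP libraries. Whether the reads come from the human cDNA or the mouse gene was not separated in the deposited counts.

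Ddah1 (ENSMUSG00000028194.15, chr3:145758675-145894277) was lower in huFOXP2 mice in every layer, but its difference did not pass in the summed fit. In L2-3 it had 110.0 and 111 CPM in huFOXP2 mice, against 172, 183 and 182 CPM in GFP mice. The L4 level was 90.9 and 83.3 CPM in huFOXP2 mice, against 183, 159.8 and 160.0 CPM in GFP mice. In L5-6 it had 121 and 137 CPM in huFOXP2 mice, against 279.7, 237 and 229 CPM in GFP mice. No huFOXP2 library reached the lowest GFP library of its layer, and mice of one group lay close together: the summed level was 110.05 ± 3.27 CPM in huFOXP2 mice (SD, n = 2) and 201 ± 10.3 CPM in GFP mice (SD, n = 3). The log2 difference was -0.87 ± 0.10 (edgeR adjusted p = 0.243), and within layers it was -0.71 in L2-3, -0.93 in L4 and -0.95 in L5-6. The difference stayed between -0.96 and -0.82 under 17 other settings, while the adjusted p ranged from 9.59e-10 to 0.9999. Ddah1 passed when the layer was a term and the mouse a random block over all 15 libraries (limma voom, adjusted p = 0.000598), in edgeR over the 15 libraries without the mouse (1.14e-05), in DESeq2 (9.59e-10) and with no filter on low counts (0.000207). The fit without the mouse, here and below, counts the layers of a mouse as separate replicates.

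Cap2 (ENSMUSG00000021373.16, chr13:46501848-46650281) was higher in huFOXP2 libraries of each layer, without passing. It had 45.6 and 48.3 CPM in L2-3 of huFOXP2 mice, against 43.9, 39.8 and 40.6 CPM in GFP mice. Its L4 libraries had 70.6 and 69.7 CPM in huFOXP2 mice, against 44.02, 50.9 and 54.1 CPM in GFP mice. In L5-6 it had 66.5 and 58.1 CPM in huFOXP2 mice, against 31.6, 35.8 and 35.2 CPM in GFP mice. The groups did not overlap in any layer but came within 2 CPM of each other in L2-3. The log2 difference was 0.49 ± 0.10 in the summed fit (edgeR adjusted p = 0.726), with 0.17, 0.50 and 0.86 in L2-3, L4 and L5-6. The difference between layers did not pass either (adjusted p = 0.083), though it did without GFP mouse 1 (0.0222) and with no filter on low counts (0.00267). Cap2 passed in DESeq2 (adjusted p = 0.0366) and in edgeR over the 15 libraries without the mouse (0.0185), in a range up to 0.99997 over 17 settings.

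**Figure D2:**
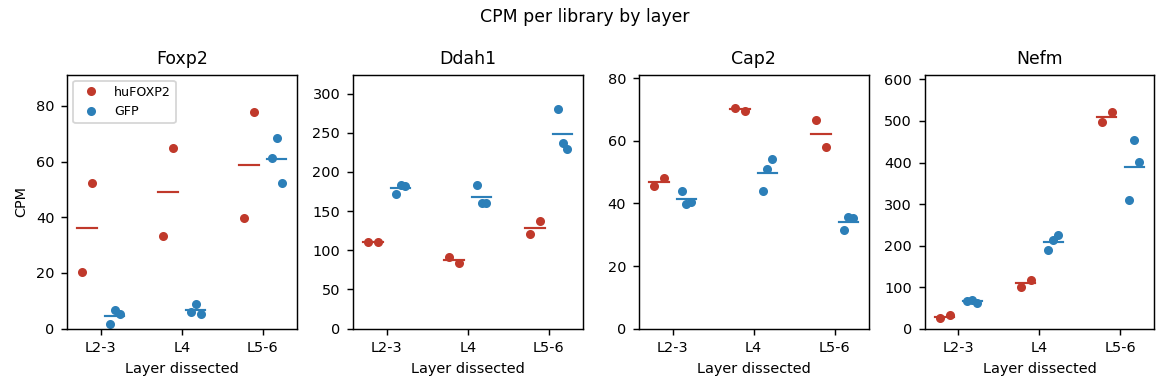
CPM of Foxp2, Ddah1, Cap2 and Nefm in every library, by dissected layer (linear axes from 0); red points are huFOXP2 libraries, blue points are GFP libraries, and each line is a group mean. Ddah1 is lower and Cap2 higher in huFOXP2 libraries of all 3 layers, Foxp2 groups are apart in L2-3 and L4 only, and Nefm is lower in L2-3 and L4 and higher in L5-6.

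Enzymes and targets around Ddah1 were looked at through a list of 16 genes of dimethylarginine and nitric oxide signalling. Of the 15 tested, 0 passed in either direction, 10 lay above 0 and 5 below, and their median log2 difference was 0.04, against -0.01 over all genes tested. Ddah2, the other enzyme that degrades dimethylarginine, had 56.3 ± 0.911 CPM in huFOXP2 mice and 55.2 ± 2.45 CPM in GFP mice (SD, n = 2 and 3), a difference of 0.03 ± 0.09 (edgeR adjusted p = 0.9999). Nos1, the neuronal nitric oxide synthase, had 56.01 and 62.4 CPM summed over layers in huFOXP2 mice, against 62.6, 86.5 and 75.3 CPM in GFP mice (-0.34 ± 0.15, adjusted p = 0.9999). The actin turnover list of 18 genes, which holds Cap2, had a median of 0.02 with 0 called. Its other cyclase-associated protein, Cap1, had 230 ± 9.64 CPM in huFOXP2 mice and 221 ± 2.83 CPM in GFP mice (0.06 ± 0.10, adjusted p = 0.9999). Cap2 apart, the actin list held values between -0.19 (Ssh1) and 0.34 (Gsn).

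Foxp1 and Foxp4, the dimerization partners of FOXP2, differed by -0.28 ± 0.23 and 0.06 in the summed fit and did not pass. Among 18 genes reported as FOXP2 targets or partners, 0 passed in the summed fit, 11 lay above 0, and the median was 0.10. Wnt5a, a secreted ligand of non-canonical Wnt signalling, had 29.4 and 21.9 CPM summed over layers in huFOXP2 mice, against 12.7, 14.9 and 15.3 CPM in GFP mice. The mice did not overlap, yet the log2 difference of 0.84 ± 0.17 (edgeR adjusted p = 0.726) was 1.16 in L2-3, 0.32 in L4 and -0.40 in L5-6. Without the L2-3 libraries it was -0.04. Wnt5a passed in DESeq2 (adjusted p = 0.00968) and in edgeR with no filter on low counts (0.00883). Srpx2, a secreted protein of synapse formation, differed by 1.06 ± 0.43 and Cntnap2, a neurexin-family adhesion protein, by 0.22, without passing.

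Beyond the calls, libraries were compared directly. In 174 of the 18064 tested genes (0.963%) every huFOXP2 library lay outside the GFP range of its layer in the same direction in all 3 layers. These were 99 genes higher in huFOXP2 (0.548%) and 75 lower (0.415%). Among protein-coding genes the share was 145 of 15154 (0.957%), and among processed pseudogenes it was 8 of 507 (1.58%), the called genes included. Genes were then ranked by p-value among genes that are neither predicted nor pseudogenes, with a mean of at least 1 CPM and the same sign in all 3 layers. Of the 20 of smallest p, Ddah1 and Cap2 included, 0 passed in the summed edgeR fit. In DESeq2 18 passed, in edgeR over the 15 libraries without the mouse 13, with no filter on low counts 9 and in limma voom 2. Over all genes, 90 of 32190 were called in DESeq2 and 57 of 16337 without the mouse. With no filter 65 of 32190 were called, and in voom 9 of 16337. The 20 genes were picked by p in the same counts, so their passing in other fits is no separate support.

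Among genes higher in huFOXP2 mice, Tgfbi, a matrix protein induced by TGF-beta, had 8.46 and 8.12 CPM in huFOXP2 mice, against 2.48, 4.10 and 3.20 CPM in GFP mice (log2 difference 1.34 ± 0.24, edgeR adjusted p = 0.724). P3h4, an endoplasmic reticulum protein needed for collagen modification, had 19.3 and 18.5 CPM in huFOXP2 mice, against 12.5, 10.7 and 11.02 CPM in GFP mice (0.73 ± 0.14, adjusted p = 0.724). Both were apart between the groups of mice, and P3h4 also in each layer, whereas the Tgfbi libraries of L5-6 overlapped. Fbn1, which encodes the microfibril protein fibrillin-1, had 34.4 and 27.4 CPM in huFOXP2 mice, against 15.2, 20.7 and 19.07 CPM in GFP mice (0.75 ± 0.17, adjusted p = 0.807; 0.99 in L2-3, 0.36 in L4 and 0.18 in L5-6). Crispld2, a secreted glycoprotein, differed by 1.87 in L2-3, 0.23 in L4 and 0.52 in L5-6, and Cavin2, a protein of caveolae, by 1.09, 0.52 and 0.00. The values of Crispld2, Fbn1 and Cavin2 thus rested mainly on L2-3, where the meningeal fibroblast markers given below had their highest median.

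Mas1, a receptor for angiotensin 1-7, had 5.52 and 5.33 CPM in huFOXP2 mice, against 2.40, 3.03 and 2.30 CPM in GFP mice (log2 difference 1.07 ± 0.21, edgeR adjusted p = 0.726). Its libraries did not overlap in any layer, with differences of 0.80, 1.42 and 0.98 in L2-3, L4 and L5-6. Cybb, the catalytic subunit of the phagocyte NADPH oxidase, had 7.09 and 4.45 CPM in huFOXP2 mice, against 0.656, 1.89 and 1.27 CPM in GFP mice (2.17 ± 0.42, adjusted p = 0.726), also without overlap in any layer. Of the 11 microglial markers, 5 lay above 0 and 0 were called (0 at an unadjusted p under 0.05), with a median of -0.00022. Lamp5, a lysosome-associated membrane protein of some cortical neurons, had 22.1 and 20.7 CPM in huFOXP2 mice, against 14.2, 12.1 and 14.97 CPM in GFP mice (0.64 ± 0.14, adjusted p = 0.807). Sypl2, a synaptophysin-like membrane protein, differed by 0.35 in L2-3, 1.53 in L4 and 1.77 in L5-6.

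Among genes lower in huFOXP2 mice, Cep290, a centrosomal protein of the ciliary transition zone, had 6.34 and 6.95 CPM in huFOXP2 mice, against 11.5, 12.3 and 10.8 CPM in GFP mice (-0.79 ± 0.16, edgeR adjusted p = 0.726). Mzt1, a partner of the gamma-tubulin complex that nucleates microtubules, had 26.4 and 28.01 CPM in huFOXP2 mice, against 40.9, 36.7 and 43.2 CPM in GFP mice (-0.57 ± 0.11, adjusted p = 0.726). Neither overlapped in any layer, and the layers differed little for Mzt1 (-0.54, -0.57 and -0.53). Dnah6, a dynein heavy chain of motile cilia, was at -0.14 in L2-3, -0.91 in L4 and -1.79 in L5-6. Foxj1, the transcription factor of motile ciliated cells, is outside this ranking because its sign was not the same in all layers (0.20, -0.77 and -2.18). It was listed with choroid plexus and ependyma markers, of which 3 of 5 lay above 0 in the summed fit (median 0.07, 0 called). An unadjusted p under 0.05 was found for 2 of the 5, both lower. The list's medians were 0.77 in L2-3, -0.76 in L4 and -1.16 in L5-6. Foxj1 had 3.15 and 3.68 CPM over the summed layers in huFOXP2 mice, against 11.4, 7.46 and 6.89 CPM in GFP mice. It passed in DESeq2 (adjusted p = 0.00154) and in edgeR with no filter on low counts (0.00436). Mapk15, a kinase that acts in ciliogenesis, had 0.582 and 0.700 CPM in huFOXP2 mice, against 2.79, 1.63 and 1.51 CPM in GFP mice (-1.62 ± 0.37, adjusted p = 0.822). GFP mouse 1 was highest for both, and without it the difference was -1.07 for Foxj1, against -1.33 with it, and -1.30 for Mapk15.

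Coq2, an enzyme of coenzyme Q synthesis, had 22.8 and 23.3 CPM in huFOXP2 mice, against 35.98, 31.4 and 33.4 CPM in GFP mice (log2 difference -0.54 ± 0.11, edgeR adjusted p = 0.726). Acat2, a cytosolic thiolase, had 91.4 and 87.7 CPM in huFOXP2 mice, against 122, 126 and 118 CPM in GFP mice (-0.44 ± 0.10, adjusted p = 0.775). Nit2, an omega-amidase, had 17.6 and 15.8 CPM in huFOXP2 mice, against 22.5, 26.2 and 26.6 CPM in GFP mice (-0.59 ± 0.14, adjusted p = 0.837). None of these overlapped in any layer. Trappc2l, a subunit of the TRAPP vesicle tethering complexes, had 33.6 and 32.5 CPM in huFOXP2 mice, against 43.5, 50.6 and 51.9 CPM in GFP mice (-0.56 ± 0.11, adjusted p = 0.726), and overlapped in L5-6 only. Htr2c, a serotonin receptor, had 1.07 and 1.15 CPM in huFOXP2 mice, against 2.40, 3.63 and 3.11 CPM in GFP mice (-1.46 ± 0.28, adjusted p = 0.724).

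**Figure D3:**
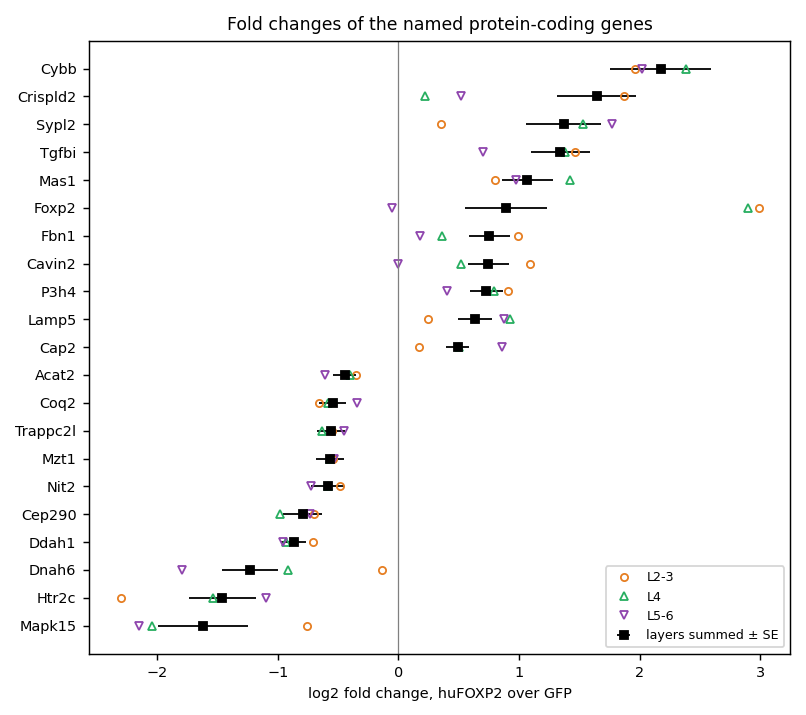
Log2 fold change of huFOXP2 over GFP for Foxp2, Ddah1, Cap2 and the protein-coding genes of smallest p in each direction; black squares with bars are the summed layers ± SE, and open symbols are single layers. The 3 layers lie close together for Ddah1 and Mzt1 and far apart for Foxp2, Dnah6 and Crispld2; no gene shown passed the summed test.

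Because the main test sums the layers of only 2 and 3 mice, a fit with the layer as a term, and the mouse as a random block, was set beside it. That fit rests on the same mice and took 1 correlation within a mouse for all genes. This limma voom fit called 9 genes, 6 higher and 3 lower in huFOXP2 mice. They were the 3 pseudogenes, Ddah1, Cybb (adjusted p = 0.0466) and 4 genes that were chosen after their values were seen. Gm10499, an unprocessed pseudogene on chromosome 17, had 2.10 and 2.37 CPM summed over layers in huFOXP2 mice, against 0.437, 0.466 and 0.334 CPM in GFP mice (voom adjusted p = 0.00305, summed fit 0.223). Ccl28, a chemokine of mucosal epithelia, had 15.6 and 12.8 CPM in huFOXP2 mice, against 4.49, 3.58 and 8.28 CPM in GFP mice (voom adjusted p = 0.0218, summed fit 0.871). Both were apart between groups in every layer. Gm8773, a predicted protein-coding gene, had 1.59 and 1.96 CPM in huFOXP2 mice, against 4.18, 5.60 and 4.36 CPM in GFP mice (voom adjusted p = 0.0218, summed fit 0.724). Pf4, a platelet chemokine that some macrophages also make, had 5.93 and 3.43 CPM in huFOXP2 mice, against 1.24, 2.35 and 1.07 CPM in GFP mice (voom adjusted p = 0.0367, summed fit 0.876). Gm8773 and Pf4 were apart in every layer too, but the level of Pf4 rested mainly on L2-3. There Pf4 had 12.4 and 10.98 CPM in huFOXP2 mice, against 2.86, 6.14 and 3.504 CPM in GFP mice. In L4 it had 0.766 and 0.692 CPM in huFOXP2 mice, against at most 0.577 CPM in GFP mice. In L5-6 Pf4 had 0.3398 and 0.878 CPM in huFOXP2 mice, against at most 0.234 CPM in GFP mice.

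Whether an effect was alike in the layers was tested with an interaction of treatment and layer and the mouse as a block. Of 16337 genes, 3 passed (0.0184%), and Foxp2 was among them: its effect in L5-6 minus that in L2-3 was -3.04 on the log2 scale (edgeR adjusted p = 0.0151). Nefm, which encodes the medium subunit of neurofilaments, had 25.9 and 31.6 CPM in L2-3 of huFOXP2 mice, against 66.2, 67.9 and 61.6 CPM in GFP mice. In L4 it had 99.9 and 118 CPM in huFOXP2 mice, against 189.9, 214 and 224 CPM in GFP mice, and in L5-6 it had 497 and 522 CPM in huFOXP2 mice, against 309, 454 and 401 CPM in GFP mice. The huFOXP2 libraries were below all GFP libraries in L2-3 and L4 and above them in L5-6, a difference of 1.60 between the effects in L5-6 and L2-3 (adjusted p = 0.0107). Gm19410, a predicted gene, differed in the same way (1.38, adjusted p = 0.0405). In the lists of layer markers 0 genes were called. The median of 8 layer 4 markers was -0.57 in L2-3 and 0.40 in L5-6, and that of 11 layer 2-3 markers was -0.46 and 0.39. For 12 layer 5 markers it was 0.14 and 0.22, but -0.51 in L4, so the sign changed there. For 14 layer 6 and subplate markers it was -0.39 and -0.20, with -0.50 in L4, so it stayed below 0. The part of the dissection depth in these differences was not tested. The 3 calls were lost without GFP mouse 3, huFOXP2 mouse 1 or huFOXP2 mouse 2 (adjusted p from 0.0737 to 0.793), whereas 861 genes passed without GFP mouse 1 and 362 without GFP mouse 2.

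Gene lists of cell types and pathways were then read by their counts and medians, beside the median of -0.01 over all 18064 genes, of which 8670 (48%) lay above 0 and 808 (4.47%) had an unadjusted p under 0.05. In bulk samples, fewer cells of a type and less RNA per cell cannot be told apart. In the summed edgeR fit 0 of their 322 tested genes passed, while 39 had an unadjusted p under 0.05 (28 higher, 11 lower). The limma voom fit called Ddah1 among them, and other alternatives called further ones, such as Wnt5a and Foxj1 in DESeq2. Of 14 interneuron markers, 13 lay above 0 in the summed fit (4 at an unadjusted p under 0.05), with a median of 0.30 and medians of 0.46 in L2-3, 0.39 in L4 and 0.25 in L5-6. Gad1, which makes the transmitter GABA, had 81.4 and 86.8 CPM in huFOXP2 mice, against 52.5, 58.98 and 73.6 CPM in GFP mice (0.45 ± 0.15, edgeR adjusted p = 0.953). Gad2, its paralog, had 51.02 ± 3.57 CPM in huFOXP2 mice and 37.7 ± 6.16 CPM in GFP mice (SD, n = 2 and 3; adjusted p = 0.966), and both were apart in every layer. Adarb2, found in interneurons of caudal origin, differed by 0.78, 0.65 and -0.15 over L2-3, L4 and L5-6. The summed CPM of the list was 868 to 979 in huFOXP2 and 465 to 692 in GFP libraries of L2-3. In L4 it was 693 to 715 in huFOXP2 and 453 to 635 in GFP libraries, and in L5-6 it was 583 to 625 in huFOXP2 and 415 to 595 in GFP libraries, so only L5-6 overlapped.

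Meningeal fibroblast markers had their highest median in L2-3. All 9 lay above 0 in the summed fit, with a median of 1.14 (0 called, 6 at an unadjusted p under 0.05), but the medians were 1.07 in L2-3, 0.02 in L4 and -0.48 in L5-6. The summed median was 0.46 without huFOXP2 mouse 1. Their summed CPM in L2-3 was 1531 to 2154 in huFOXP2 libraries and 413 to 1249 in GFP libraries, while in L5-6 it was 34.9 to 45.9 in huFOXP2 libraries and 35.3 to 53.6 in GFP libraries. Dcn, which encodes the matrix proteoglycan decorin, had 116 and 67.5 CPM in huFOXP2 mice, against 17.6, 47.4 and 32.2 CPM in GFP mice (1.50 ± 0.39, edgeR adjusted p = 0.883). Igf2, a growth factor made by the meninges, turned from 1.50 ± 0.41 over all layers to -0.53 without L2-3. The sums of other markers outside the neural lineage were also apart in L2-3. All 4 tested red blood cell markers lay above 0 in the summed fit (median 0.77; 0 called, 2 at an unadjusted p under 0.05), with a median of 1.19 in L2-3, and the summed median was 0.06 without huFOXP2 mouse 1. Their summed CPM in L2-3 was 286 to 646 in huFOXP2 libraries and 155 to 246 in GFP libraries. Of 10 endothelial and pericyte markers, 5 lay above 0 in the summed fit (0 called, 0 at an unadjusted p under 0.05), and their summed CPM in L2-3 was 949.7 to 1097 in huFOXP2 libraries and 681 to 829 in GFP libraries. The sums of both lists overlapped in L4 and L5-6. The part of meningeal tissue or blood and vessels in the higher values of Tgfbi, Fbn1, Crispld2, Cavin2, Wnt5a and Pf4 was not tested. Retinoic acid genes included Aldh1a2, an enzyme of retinoic acid synthesis that meninges express, at 1.63 ± 0.52 (adjusted p = 0.944) over all layers and -0.32 without L2-3.

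Oligodendrocyte markers had their lowest median in L5-6. All 12 lay below 0 in the summed fit (median -0.55; 0 called, 1 at an unadjusted p under 0.05), with medians of -0.03 in L2-3, -0.10 in L4 and -0.81 in L5-6. Without GFP mouse 1 the median was -0.09 in the summed fit and -0.30 in L5-6. Their summed CPM in L5-6 was 1459 to 1791 in huFOXP2 libraries and 1605 to 4758 in GFP libraries, so the groups overlapped. Sox10, the lineage's transcription factor, had 33.2 and 31.9 CPM in huFOXP2 mice, against 69.8, 36.7 and 39.6 CPM in GFP mice (-0.58 ± 0.27, edgeR adjusted p = 0.9999), and the difference was -0.23 without GFP mouse 1. This mouse was also highest for Aldoc, an astrocyte-rich glycolytic enzyme. Of the 10 astrocyte markers, Aldoc included, 6 lay above 0 in the summed fit and 0 were called, with a median of 0.08. An unadjusted p under 0.05 was found for 2 of them, 1 higher and 1 lower. The higher one was Gjb6, at 1.06 ± 0.24 (edgeR adjusted p = 0.807), and the lower one was Aldoc. Gjb6 differed by 1.41 in L2-3, 0.26 in L4 and -0.006 in L5-6. Aldoc had 211 and 176 CPM in huFOXP2 mice, against 518, 270.5 and 366 CPM in GFP mice (-0.99 ± 0.26, adjusted p = 0.895), and its groups did not overlap in any layer. Without GFP mouse 1 the difference was -0.72 for Aldoc. Aldoc passed in DESeq2 (adjusted p = 0.0338) and in edgeR over the 15 libraries without the mouse (0.0271). The immediate early gene Fos had 4.93 and 6.52 CPM in huFOXP2 mice, against 28.5, 13.3 and 13.04 CPM in GFP mice (-1.67 ± 0.39, adjusted p = 0.837), again without overlap in any layer and with GFP mouse 1 highest (-1.20 without it). Fos also passed in these alternatives (adjusted p = 0.00156 in DESeq2 and 0.0476 in edgeR over the 15 libraries). Of the 14 activity-induced genes, Fos included, 4 lay above 0 and the median was -0.05. Among them 3 had an unadjusted p under 0.05, 2 lower and 1 higher. The higher one was Egr4, at 0.56 ± 0.21 (edgeR adjusted p = 0.993).

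Photoreceptor genes had a median of 1.47 over the 3 tested of 7 listed (0.23 without huFOXP2 mouse 1), and their levels were highest in huFOXP2 mouse 1. The summed CPM of the list was 11.2, 20.7 and 20.7 in the L2-3, L4 and L5-6 libraries of huFOXP2 mouse 1 and 3.49, 1.52 and 2.74 in those of huFOXP2 mouse 2, against at most 2.14, 2.34 and 2.60 in GFP libraries. Crx had 111 and 0 reads in huFOXP2 mice 1 and 2, and 0, 1 and 0 in the GFP mice. The 3 called pseudogenes kept their direction without this mouse, at 7.11 for Gm6166, 5.96 for Gm11942 and -5.93 for Rpsa-ps10, and without GFP mouse 1, at 7.27, 6.84 and -5.50. Among layer 6 and subplate markers, 11 of 14 lay below 0 (median -0.30). Tbr1, a deep-layer transcription factor and partner of FOXP2, had a difference of -0.55 in L2-3, -0.12 in L4 and -0.23 in L5-6, without passing.

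**Figure D4:**
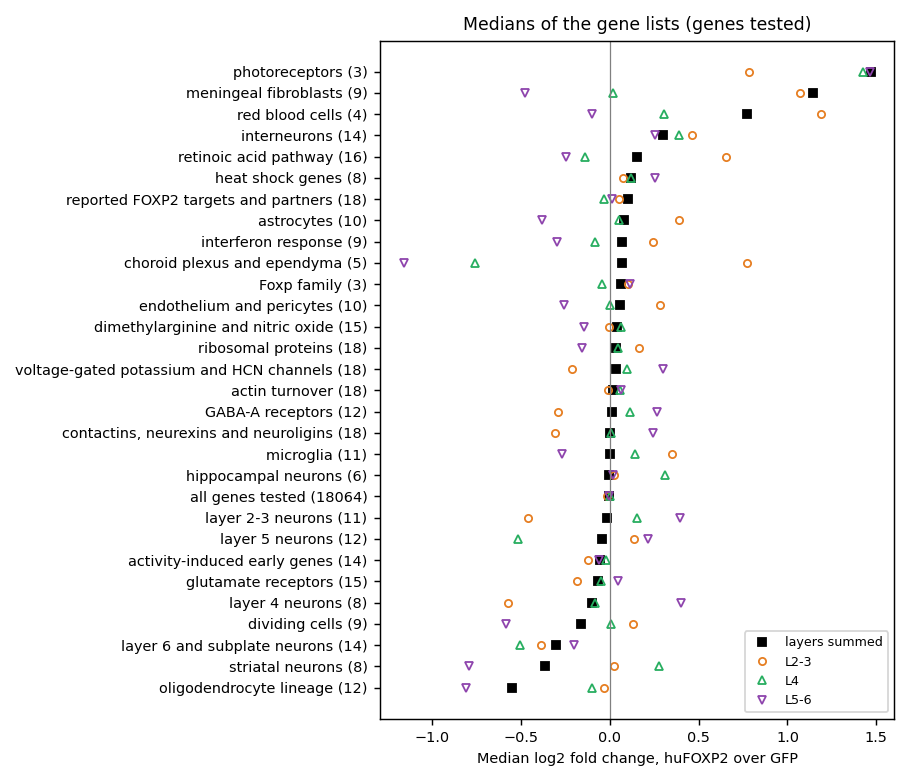
Median log2 fold change of huFOXP2 over GFP for each gene list, with the number of genes tested in brackets; black squares are the summed layers and open symbols are single layers. Most lists lie near the median of all genes; interneuron markers are above 0 in all 3 layers, while the meningeal median is 1.07 in L2-3 and near or below 0 in L4 and L5-6, and the oligodendrocyte median is -0.81 in L5-6 and near 0 in L2-3 and L4.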

How the data were processed

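The table gives RNA sequencing of dissected neocortical layers, 1 library per layer and mouse. The authors deposited 1 table of unnormalized read counts, covering 54446 genes and 18 libraries. Per the labels' protocols, libraries were Illumina TruSeq from total RNA. The submitters' processing notes name STAR, HTSeq and mm10. Not given in the sources used here were versions, gene models, strand use and the treatment of multiply matching reads. Gene types and positions came from GENCODE M21, which 53229 identifiers matched with their version and 54409 without it.

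Groups and mouse numbers came from the sample titles, and the same number across layers of a group was taken as 1 mouse, since layers were pooled per mouse. Deviations from group means correlated between layers of a mouse at 0.259 to 0.612 (15 of 15 pairs over 0.1). No replicate libraries were copies of each other. Counts of the 3 layers were summed per mouse and fitted in edgeR 4.0.16 (R 4.3.3; quasi-likelihood test, robust) after TMM scaling and filterByExpr (minimum count 10, minimum total 15), with Benjamini-Hochberg adjustment over all genes tested and a threshold of 0.05. Layers were also fitted alone, and the interaction of treatment and layer was tested over 15 libraries with the mouse as a block. The summed, L4 and interaction fits were also run on simulated counts. These were drawn independently for each library, so they did not hold the correlation of layers within a mouse. CPM are read counts scaled to the TMM-adjusted library size. SEs of log2 fold changes were derived from the F statistics. "Smallest p" lists took 10 genes per direction with a mean of at least 1 CPM, the same sign in each layer and no predicted gene or pseudogene; each gene list gave its 2 members of smallest p, and others were named as examples of a role after their values were seen. For some listed genes no result is reported here. Alternatives used RLE scaling, no filter, DESeq2 1.42.0, limma 3.58.1 on mouse means, voom with layer as a term (correlation within a mouse 0.335), sex as a term (read from Xist and Y-linked counts, 1 female per group), each mouse left out and, chosen after seeing the data, each layer left out. The comparison, genes and lists were chosen with earlier results of these data known. p-values of fits to summed counts, to mouse means or to 1 layer measure the spread between mice. The interaction test has the mouse as a block, so its p-values measure the spread of layers within mice. edgeR over the 15 libraries without the mouse counts the correlated layers of a mouse as separate replicates, so its p-values do not measure the spread between mice. The voom fit took 1 correlation within a mouse for all genes, so its p-values rest partly on the spread of layers within mice.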

Additional observations from a re-analysis of the deposited data

Results flagged for a closer look

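For 3 genes the difference between huFOXP2 and GFP mice was not alike in the layers in the main interaction test. With GFP mouse 3 left out, or with no replicate block, 0 genes passed. Reads of the FOXP2 cDNA may count toward Foxp2 itself, and the part of the dissection depth was not tested. The huFOXP2 minus GFP effect in L5-6 less that in L2-3, on the log2 scale, was 1.60 for Nefm, -3.04 for Foxp2 and 1.38 for Gm19410 (edgeR interaction test with the mouse as a block, adjusted p = 0.0107, 0.0151 and 0.0405).

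Libraries outside the comparison also carried a signal. In the mouse that received mouse Foxp2, the lowest level over its 3 libraries was 47.1 CPM for Gm6166 and 16.6 CPM for Gm11942, above every GFP library. No explanation was tested for either.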

How the results depend on the processing

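The 3 pseudogenes kept their direction under all 17 alternatives to the summed fit, and Gm6166 also kept its call. The count of called genes, 3 in the summed fit, was 65 with no filter, 90 in DESeq2, 57 with edgeR over 15 libraries without the mouse, 9 with voom, and 1 to 15 when a mouse was left out (1 without GFP mouse 2, 7 without GFP mouse 3, 15 without huFOXP2 mouse 2). The mouse numbers do not pair huFOXP2 with GFP mice (0 of 6 correlations over 0.1). Over mice 1 and 2 a replicate block gave 18 calls, Ddah1 among them (edgeR adjusted p = 0.0352), and no block 7. The fit with no block is the same as that without GFP mouse 3, so the 17 alternatives hold it under 2 names. The genes shared by all layers numbered 20 with no filter, 34 in DESeq2, 1 to 10 with a mouse left out, 15 with the block and 7 without it. In L2-3 there were 864 calls with no filter, 370 in DESeq2, 1 to 400 with a mouse left out, 36 with the block and 6 without it. In L4 these counts were 115, 32, 2 to 9, 66 and 5, and in L5-6 they were 490, 39, 2 to 4, 38 and 2. Between layers, 2458 genes passed with no filter, 0 without the replicate block and 0 to 861 with a mouse left out, while 3347 genes had an unadjusted p under 0.05 in the main test. The cause of these shifts was not tested. RLE scaling, limma on mouse means, sex as a term and sums without a layer gave 3 calls each.

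Some values that had not passed changed sign. Without L2-3, Wnt5a was at -0.038, Plxnd1 0.043, Rorb 0.15, Tek -0.15, Rgs5 -0.023, Igf2 -0.53, Penk -0.057, Ifitm3 -0.22, Ifit3 -0.18 and Aldh1a2 -0.32. Without L4, Whrn was at 0.044. Without L5-6, Gabrd was at -0.0038 and Cntnap1 at -0.10. With a mouse left out, Rpsa ranged from -0.20 to 0.043, Rps2 from -0.44 to 0.052, Tek from -0.014 to 0.58 and Rplp1 from -0.048 to 0.29, and Rps2 was at 0.059 with the replicate block and 0.052 without it. The difference of the Gm11942 effect between layers ranged from -1.31 to 0.034. With 2 and 3 mice, a gene that missed the threshold is not shown to be unchanged, and depth limits genes under 1 CPM.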

Other observations

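The mouse that received mouse Foxp2 was in no comparison, and its levels are given here from CPM scaled over all 18 libraries. Gm6166 had 57.96, 55.1 and 47.1 CPM in its L2-3, L4 and L5-6 libraries, Gm11942 had 26.6, 18.4 and 16.6 CPM, and Rpsa-ps10 had 4.67, 3.12 and 3.01 CPM. These levels lay near those of the huFOXP2 mice and away from those of the GFP mice in each layer. Ddah1 had 244, 175 and 229 CPM, Nefm had 56.4, 154 and 431 CPM, and Gm10499 had 0.656, 0.275 and 0.35 CPM. Ddah1 and Gm10499 thus lay nearer to the GFP than to the huFOXP2 libraries. Cap2 had 41.5, 60.5 and 47.8 CPM, between both groups in L4 and L5-6. This is 1 mouse, so no test was made.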
